A study of Mus musculus with 9 samples.

Results

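The epithelial chemokines examined here are Cxcl9, Cxcl10, Cxcl16, Cx3cl1, Ccl20, Ccl25 and Ccl28, secreted or membrane-anchored ligands made by intestinal epithelial cells (IECs). They were chosen by symbol: the 7 rows of the count table whose mouse Ensembl identifiers map to these names, out of 29288 genes. RNA was sequenced from live crypt IECs of the proximal small intestine, sorted as EpCAM+ and negative for CD45, CD31 and Ter119, from female wild-type C57BL/6J mice that the study's methods give as 7 to 10 weeks old. All mice received 1 intraperitoneal injection. The control group (PBS, sampled at 18 h), the 18h-αGal group (2 µg αGalCer, 18 h) and the 72h-αGal group (2 µg αGalCer, 72 h) held 3 mice each. αGalCer (α-galactosylceramide) is a glycolipid that activates natural killer T (NKT) cells when CD1d presents it. Since the controls were all sampled at 18 h, treatment and sampling time cannot be told apart at 72 h, and both comparisons with control share the same 3 control libraries.

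Chemokines bind G protein-coupled receptors on leukocytes and guide where these cells go. In the gut, CCL25 and CCL28 act as constitutive homing signals, CCL25 for CCR9+ lymphocytes of the small intestine and CCL28 for CCR10+ plasma cells. CCL20 draws CCR6+ cells towards follicle-associated epithelium, CXCL9 and CXCL10 are interferon-induced ligands of CXCR3, and CXCL16 and CX3CL1 are made as transmembrane proteins that bind CXCR6 and CX3CR1 and can be shed by ADAM proteases. CXCL16 and CXCR6 are known for a role in the localisation and survival of NKT cells.

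The 5′ flanks of 4 of these genes are shown because of the results described below: Cxcl9, which was called as higher at 18 h, its neighbour Cxcl10, which was not called, and Ccl20 and Ccl28, whose 18 h libraries were the lowest. Each is the 250 bases before the RefSeq start on GRCm38.p6, read 5′ to 3′ on the gene's own strand. The 18 h libraries of Cxcl16 were also the lowest, but its flank was missing from the reference used and is not shown. Capitals mark matches, on either strand, to an interferon-stimulated response element (GAAA, any 2 bases, GAAA) or a gamma-activated site (TTCNNNGAA). They also mark an NF-κB element and the letters TATAAA, at any distance from the start.
Cxcl9, minus strand, chr5:92328080-92328329: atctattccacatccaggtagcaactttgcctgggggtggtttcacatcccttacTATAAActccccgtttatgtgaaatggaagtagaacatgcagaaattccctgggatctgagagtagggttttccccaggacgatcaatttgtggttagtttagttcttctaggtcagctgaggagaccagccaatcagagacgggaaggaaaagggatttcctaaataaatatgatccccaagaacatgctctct
Cxcl10, minus strand, chr5:92348890-92349139: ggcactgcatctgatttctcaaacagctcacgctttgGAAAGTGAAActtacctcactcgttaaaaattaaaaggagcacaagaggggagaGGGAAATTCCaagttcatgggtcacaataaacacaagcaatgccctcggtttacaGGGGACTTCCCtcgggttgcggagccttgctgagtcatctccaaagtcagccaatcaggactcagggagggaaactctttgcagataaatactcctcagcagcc
Ccl20, plus strand, chr1:83116516-83116765: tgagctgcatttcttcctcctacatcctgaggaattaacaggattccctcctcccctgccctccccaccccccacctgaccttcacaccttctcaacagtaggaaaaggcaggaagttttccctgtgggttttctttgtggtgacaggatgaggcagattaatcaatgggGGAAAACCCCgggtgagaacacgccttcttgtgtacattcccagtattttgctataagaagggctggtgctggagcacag
Ccl28, plus strand, chr13:119623569-119623818: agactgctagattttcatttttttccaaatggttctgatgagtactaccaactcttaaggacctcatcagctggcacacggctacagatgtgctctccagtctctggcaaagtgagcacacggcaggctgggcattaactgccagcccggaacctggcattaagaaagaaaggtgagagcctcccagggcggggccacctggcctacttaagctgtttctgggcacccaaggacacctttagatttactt

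The Cxcl10 flank held 1 match to the interferon-stimulated element (GAAAGTGAAA, 213 to 204 bases before the start) and 3 NF-κB matches, of which GGGGACTTCC and GGGACTTCCC overlap. The Ccl20 flank held 1 NF-κB match, on the minus strand, 80 to 71 bases before the start. In the Cxcl9 flank the sole match to these patterns was the letters TATAAA, 195 to 190 bases before the start. No match stood in the Ccl28 flank. Among 32851 RefSeq promoter windows of the same length, 2.98% held the interferon-stimulated element, 7.02% the gamma-activated site, 7.25% the NF-κB element and 12.4% TATAAA. These matches describe the letters of the windows and not binding. Other forms of interferon element were not searched for, so a flank without a match may still hold one.

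Library totals ranged from 8887861 counts (control replicate 3) to 32722293 (control replicate 1), which sets how well the rare transcripts could be counted. Scaled to CPM by the library total, the floor of 3 counts was 0.338 at the lowest depth and 0.0917 at the highest, for counting error only. The filter level given below is on this scale too. CPM levels of genes were instead scaled by the total over the tested genes times a TMM normalisation factor. Replicates are separate mice, and no pair of libraries was a duplicate. Epcam had 16279 to 22719 normalised counts in every library. Of 22 leukocyte markers, 18 were in the table, 9 could be tested and 0 were called in any comparison with edgeR. At an unadjusted p under 0.05 there were 0 at 18 h, 1 at 72 h and 1 between the times. The summed level of the 18 was 19.9 to 34.2 CPM in control, 22.9 to 39.3 CPM in 18h-αGal and 39.6 to 47.8 CPM in 72h-αGal. The 72h-αGal sums were above those of every other library, and Cd68 had the highest counts. Of the 18, 5 to 10 were at 0 in a control library, 7 to 9 in an 18h-αGal library and 3 to 8 in a 72h-αGal library. Cd3g, Cd4 and Ncr1 had counts in some controls and 0 in all 18h-αGal libraries, whereas Ms4a1, a B cell marker, had 0 counts in all controls, 10, 4 and 2 in 18h-αGal and 14, 23 and 10 in 72h-αGal. Cd3e and the macrophage marker Adgre1 were at 0 in all controls and reached at most 2 and 4 counts in 18h-αGal. In 72h-αGal, Cd3e had 2 to 21 counts and Adgre1 had 0. Ptprc, the gene for CD45, had 50, 15 and 6 counts in control and 40, 44 and 19 in 18h-αGal. The 9 measured markers of stroma, endothelium and red cells summed to 4.13 to 5.95 CPM in control and 1.26 to 2.19 CPM in 18h-αGal. In sorted bulk RNA, fewer cells of a type and less RNA per cell cannot be told apart.

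The first question was which chemokine transcripts differed 18 h after NKT cell activation. Of the 7 genes, Cxcl9 was higher and Cxcl16 and Ccl28 were lower in 18h-αGal than in control (edgeR quasi-likelihood test, Benjamini-Hochberg adjusted p under 0.05 over all 18933 genes tested). Over all tested genes, 5.96% were called in this comparison, 3.27% as higher and 2.69% as lower. All 7 genes passed the filter on low counts, but Cxcl9 did so through 3 of the 18h-αGal and 2 of the 72h-αGal libraries, with 0 control libraries above the filter level of 0.518 CPM. The 3 libraries of each group did not overlap for 1 gene that was higher (Cxcl9) and 3 that were lower (Cxcl16, Ccl20 and Ccl28), where 23.8% of all tested genes did not overlap, 11.5% as higher and 12.3% as lower. At an unadjusted p under 0.05 there were 4 of the 7 genes and 20.8% of all tested genes. The median log2 fold change of the 7 genes was -0.35, against -0.03 for all tested genes.

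**Figure D1:**
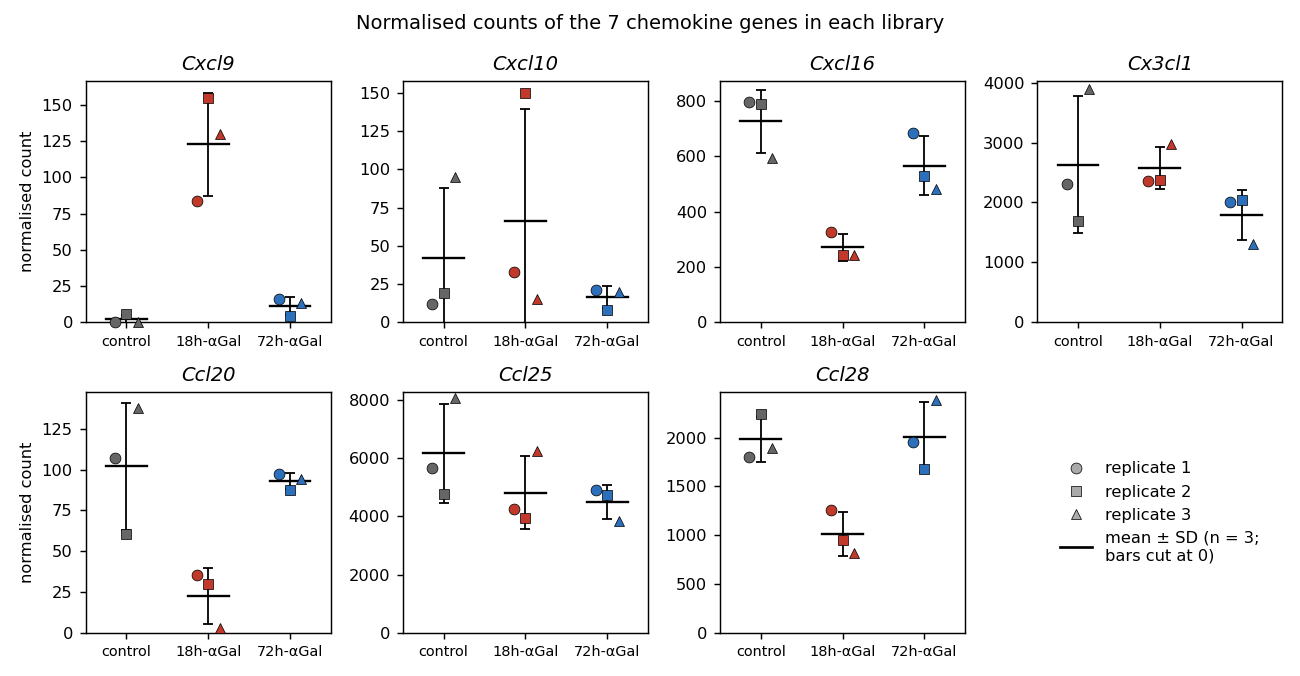
Normalised counts (raw counts divided by a library size factor) of each chemokine gene on the vertical axis, with a point per mouse in the control, 18h-αGal and 72h-αGal groups and the mean ± SD (n = 3, bars cut at 0) in black. The 3 18h-αGal points lie above all others for Cxcl9 and below all others for Cxcl16, Ccl20 and Ccl28, while the Cxcl10 points of control and 18h-αGal are interspersed.

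Cxcl9, an interferon-γ-induced ligand of CXCR3 (chr5:92321331-92328079), had 0, 6 and 0 raw counts in the control libraries, 133, 172 and 94 in the 18h-αGal libraries and 14, 4 and 18 in the 72h-αGal libraries. In normalised counts, the 18h-αGal libraries held 83.9, 155 and 130, and the 72h-αGal libraries 16.2, 4.03 and 13.2. All 18h-αGal libraries were far above every other library, and 1 of the 72h-αGal libraries lay below the single control with counts. The fitted log2 fold change was 5.85 ± 0.95 (SE) for 18h-αGal against control (adjusted p = 0.00254, edgeR), with a 95% interval from 3.83 to 7.88. Its size leans on the 6 counts of control replicate 2: without that library all controls were at 0 and the fitted value was 10.06, which depends on the prior count and is no bound, while without control replicate 1 it was 5.02. The summed leukocyte markers given above overlapped between control and 18h-αGal. Most of that sum was Cd68, with means of 18.8 CPM in control and 22.7 CPM in 18h-αGal, so it says little about the other markers. The part of residual leukocytes in the Cxcl9 counts was not tested.

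Cxcl10, which also signals through CXCR3 and lies 18.6 kb from Cxcl9 (chr5:92346638-92348889), was not called. Its raw counts were 20, 20 and 40 in control, 52, 167 and 11 in 18h-αGal and 18, 8 and 27 in 72h-αGal. The corresponding normalised counts were 11.7, 19.0 and 95.1, then 32.8, 150 and 15.2, then 20.9, 8.07 and 19.9. A single 18h-αGal library and a single control library stood out, and the groups overlapped. The log2 fold change at 18 h was 0.76 ± 0.89 (SE; adjusted p = 0.70, edgeR), with an interval from -1.17 to 2.68, and its sign turned to -0.71 without 18h-αGal replicate 2. Without control replicate 3, the smallest library, it was 2.12.

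Cxcl16 (chr11:70454389-70459984) had normalised counts of 795, 791 and 594 in control, 328, 243 and 241 in 18h-αGal and 686, 529 and 481 in 72h-αGal. The 18h-αGal libraries were below all libraries of the other groups, and 72h-αGal overlapped with control. The transcript fell by 1.42 ± 0.21 (SE) on the log2 scale at 18 h (adjusted p = 0.00136, edgeR), so that it decreased by 62.6%, with an interval from -1.86 to -0.98. In the GENCODE vM39 annotation its exons share 43.2% of their bases with Med11 and 41.6% with Zmynd15, which lie on the opposite strand, and the strand setting of the counting is not given in the sources used here. Med11 had 240 to 256 normalised counts in control and 223 to 266 in 18h-αGal, and these ranges overlapped. Zmynd15 had 42.8 to 49.3 in control and 5.52 to 17.7 in 18h-αGal.

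Cx3cl1, the gene for fractalkine (chr8:94772180-94782427), had normalised counts of 2312, 1687 and 3899 in control, 2366, 2367 and 2978 in 18h-αGal and 2009, 2041 and 1300 in 72h-αGal. The 18h-αGal libraries lay inside the control range. The log2 fold change was -0.02 ± 0.29 (SE; adjusted p = 0.98, edgeR), and its interval from -0.67 to 0.63 leaves room for moderate differences either way. Control replicate 3 held the highest value, and without it the log2 fold change was 0.36.

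Ccl20 (chr1:83116766-83119167) had raw counts of 183, 64 and 58 in control, 56, 33 and 2 in 18h-αGal and 84, 87 and 128 in 72h-αGal. In normalised counts these were 107, 60.7 and 138, then 35.3, 29.6 and 2.76, then 97.3, 87.7 and 94.2. All 18h-αGal libraries were below all controls, as were those of 12.3% of all tested genes. The log2 fold change of -2.09 ± 0.59 (SE) had an adjusted p of 0.0510 with edgeR and was not called, while DESeq2 gave an adjusted p of 0.00716, within a range of 0.00716 to 0.134 over 15 alternatives. Sox8 and Gp2, markers of the M cells of follicle-associated epithelium, were at most 10.1 and 2.32 normalised counts in any library. Other genes of that list were abundant, with control means of 2744 normalised counts for Tnfrsf11a, 510 for Marcksl1 and 304 for Spib. In all, 0 of the 5 tested genes of that list were called in any comparison with edgeR (2 at an unadjusted p under 0.05 at 18 h).

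Of the homeostatic chemokines, Ccl28 was called and Ccl25 was not, a difference that was not itself tested. Ccl28 (chr13:119623819-119654359) had normalised counts of 1807, 2244 and 1897 in control, 1263, 953 and 821 in 18h-αGal and 1953, 1680 and 2391 in 72h-αGal. Its 18h-αGal libraries were below all others, and control and 72h-αGal overlapped. It fell by 0.96 ± 0.17 (SE) on the log2 scale at 18 h (adjusted p = 0.00527, edgeR), so that it decreased by 48.5%.

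Ccl25 (chr8:4325205-4360020), which had the highest counts of the 7, had normalised counts of 5641, 4774 and 8045 in control, 4248, 3935 and 6241 in 18h-αGal and 4907, 4721 and 3824 in 72h-αGal. The 3 groups overlapped. Its log2 fold change at 18 h was -0.35 ± 0.20 (SE; adjusted p = 0.37, edgeR), with an interval from -0.79 to 0.09. The Ccl28 interval at 18 h, from -1.33 to -0.59, overlapped with that of Ccl25. The Cxcl16 interval, from -1.86 to -0.98, did not. Differences between the genes were not tested.

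**Figure D2:**
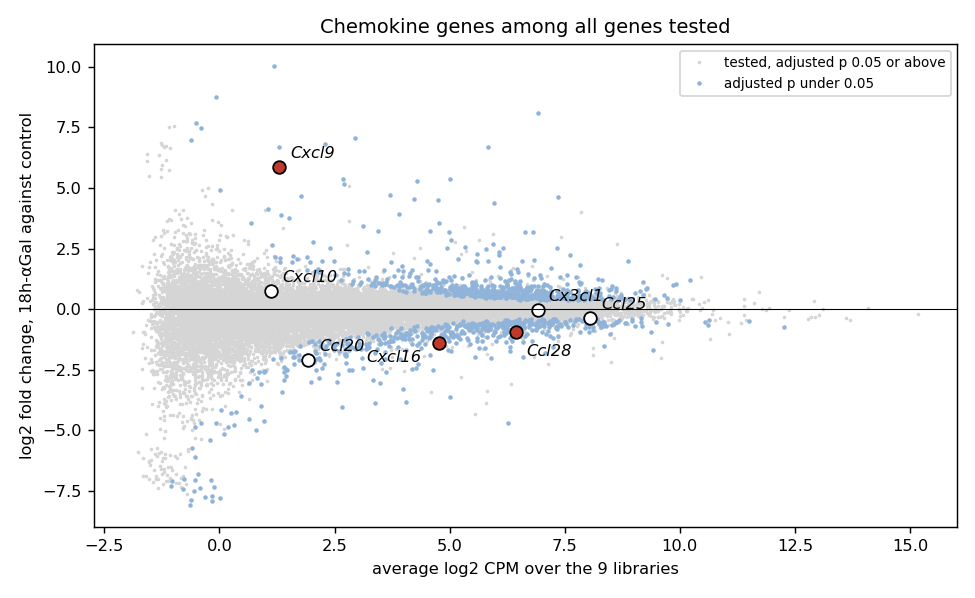
Log2 fold change of 18h-αGal against control (vertical axis) against the average log2 CPM over the 9 libraries for all 18933 tested genes, in blue where the adjusted p was under 0.05. The chemokine genes are large circles, filled where called: Cxcl9 stands at 5.85, Cxcl16 at -1.42 and Ccl28 at -0.96, and Ccl20 at -2.09 is open.

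The second question was what remained at 72 h. Against control, 0 of the 7 genes were called in 72h-αGal with edgeR and 0 with DESeq2, and 1, Cxcl9, had an unadjusted p under 0.05. The background was low too, with 5 genes (0.0264%, all lower) called among all tested and 5.94% at an unadjusted p under 0.05. The groups overlapped for all 7 genes, where 12.7% of all tested genes did not overlap, 6.36% as higher and 6.3% as lower. Cxcl9 had a log2 fold change of 2.42 ± 0.96 (SE; unadjusted p = 0.0233, adjusted p = 0.826, edgeR), on counts of 18 or fewer per library, and 6.63 without control replicate 2. For Ccl28 the log2 fold change was 0.03 ± 0.17 with an interval from -0.33 to 0.40. For Cxcl16 it was -0.36 ± 0.20 with an interval from -0.78 to 0.07, and for Ccl20 it was -0.10 ± 0.56 with the much wider interval from -1.30 to 1.09. Ccl25 stood at -0.44 ± 0.20, with an interval from -0.88 to 0.00, and Cx3cl1 at -0.54 ± 0.29, with an interval from -1.19 to 0.11. Cxcl10 stood at -1.25 ± 0.93 and at 0.11 without control replicate 3.

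The next comparison was between the times. In 72h-αGal, Cxcl16, Ccl20 and Ccl28 were higher and Cxcl9 was lower than in 18h-αGal, where 10.2% of all tested genes were called, 4.18% as higher and 6.04% as lower. The libraries did not overlap for 3 genes that were higher and 2 that were lower, where 32.8% of all tested genes did not overlap, 16.6% as higher and 16.3% as lower, and 5 of the 7 genes and 24.3% of all tested genes had an unadjusted p under 0.05. This comparison shares the 18h-αGal libraries with the first, so a turn in direction is not independent of it. Ccl28 rose by 0.99 ± 0.17 (SE) on the log2 scale (adjusted p = 0.00293, edgeR) and Cxcl16 by 1.06 ± 0.20 (adjusted p = 0.00498, edgeR), and both calls held in 15 of 15 alternatives.

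Cxcl9 fell by 3.43 ± 0.78 (SE) on the log2 scale from 18 to 72 h (adjusted p = 0.0121, edgeR). The call was lost without 18h-αGal replicate 2 (adjusted p = 0.0675) and without 72h-αGal replicate 3 (adjusted p = 0.0502), within a range of 4.205e-05 to 0.0675 over the alternatives. Ccl20 rose by 1.99 ± 0.59 (adjusted p = 0.0450, edgeR), a call that was lost in 9 of 15 alternatives, among them those without control replicate 1, 18h-αGal replicate 2, 18h-αGal replicate 3 or any 1 of the 72h-αGal replicates, with adjusted p from 0.00726 to 0.12. Without 18h-αGal replicate 3, which had 2 counts of Ccl20, its log2 fold change was 1.52. Cx3cl1 was lower in all 72h-αGal libraries than in any 18h-αGal library, as were 16.3% of all tested genes, but with -0.52 ± 0.29 it was not called (adjusted p = 0.32, edgeR). Ccl25 differed by -0.09 ± 0.20, with an interval from -0.53 to 0.35, and Cxcl10 by -2.01 ± 0.92 (adjusted p = 0.20, edgeR), or by -0.57 without 18h-αGal replicate 2.

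**Figure D3:**
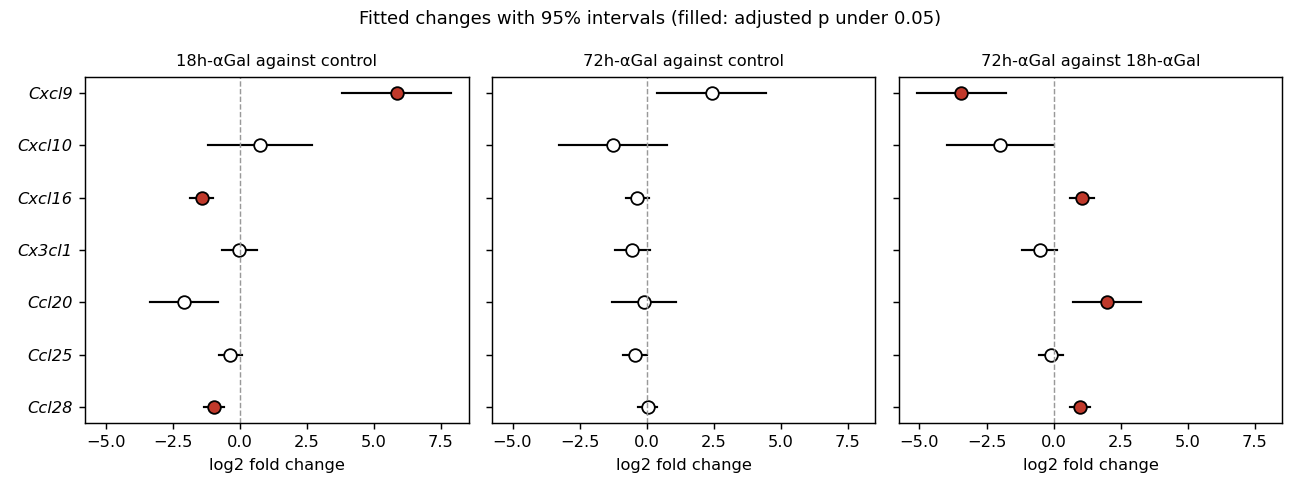
Fitted log2 fold changes of the 7 chemokine genes (horizontal axis) with 95% intervals for the 3 comparisons, filled where the adjusted p was under 0.05. Cxcl9, Cxcl16 and Ccl28 are filled in the left panel, no gene in the middle panel, and Cxcl9, Cxcl16, Ccl20 and Ccl28 in the right panel, on the other side of 0 from the left panel.

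Levels between genes were compared per length, and the order depended on the length used. With the canonical transcript of GENCODE vM39 (902 bases for Ccl25), the CPM per kb in control was 351 ± 93.6 (SD, n = 3) for Ccl25, 40.8 ± 17.3 for Cx3cl1, 27.3 ± 3.30 for Ccl28, 12.5 ± 2.07 for Cxcl16, 6.55 ± 2.45 for Ccl20, 1.95 ± 2.14 for Cxcl10 and 0.0340 ± 0.0589 for Cxcl9. Neighbours in this order whose control ranges overlapped were Cx3cl1 with Ccl28 and Ccl20 with Cxcl10. On this scale Ccl25 made up 76.1% to 84.6% of the sum of the 7 genes in every library. With all annotated exons merged, the length of Ccl25 becomes 12537 bases, and its share was 23.7% to 32.9%, beside 25.4% to 49.6% for Cx3cl1. On the merged scale the control ranges of Cx3cl1, Ccl25 and Ccl28 overlapped. Cxcl9 was the lowest of the 7 in control on both scales. In 18h-αGal its range overlapped with that of Cxcl10 on both scales, with that of Ccl20 on the canonical scale and with that of Cxcl16 on the merged scale.

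**Figure D4:**
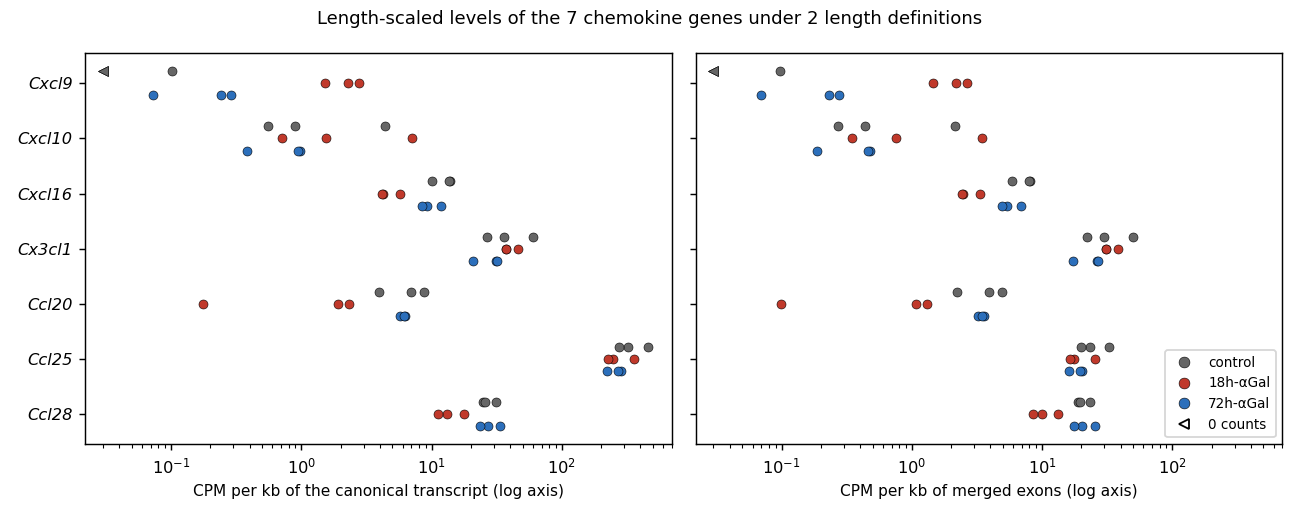
CPM per kb (log axis) of each chemokine gene in every library, by the canonical transcript length on the left and the merged exon length on the right, coloured by group; triangles at the left edge mark libraries with 0 counts. Ccl25 stands apart at the top of the left panel, from 222.6 to 455 CPM per kb, and shares the range of Cx3cl1 and Ccl28 in the right panel.

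The 7 genes varied along different axes over the 9 libraries. As a description, Pearson's r of log2 CPM was 0.88 between Cxcl16 and Ccl28, 0.85 between Ccl20 and Ccl28, 0.79 between Cxcl16 and Ccl20, and -0.87 between Cxcl9 and Cxcl16. Cx3cl1 went with Ccl25 (r = 0.78), both being highest in control replicate 3, and Cxcl9 had r = 0.27 with Cxcl10. The points share groups and libraries, so no p is given. Among 10866 genes with a mean of at least 100 normalised counts, the most alike by r over the 9 libraries were Ints10, Tlr1 and Agpat5 for Cxcl9 (0.97, 0.97 and 0.96), Abhd17b, Agps and Ifi27 for Cxcl10 (0.93, 0.92 and 0.91), and Gm7694, Phc1 and Atp13a2 for Cxcl16 (0.99, 0.97 and 0.97). For Cx3cl1 they were Reep6, Tmem120a and Enpep (each 0.98), Enpep being a brush-border peptidase of enterocytes. For Ccl20 they were Mmp15, Spice1 and Bcl11a (0.97, 0.95 and 0.95), for Ccl25 Fat1, Prkg2 and Ces2e (each 0.97), and for Ccl28 Edn1, Msi2 and Nav2 (0.99, 0.98 and 0.97), Edn1 encoding the peptide endothelin-1.

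The rest of the chemokine family was sparse in these cells. Of 32 other ligands, 19 were in the table and 5 could be tested: Ccl6, Ccl9, Ccl24, Ccl27a and Cxcl11. With edgeR, 0 of the 5 were called in any comparison, and the number at an unadjusted p under 0.05 was 0 at 18 h, 1 at 72 h and 0 between the times. DESeq2 also called 0. Their median log2 fold change was 0.18 at 18 h and 0.55 at 72 h, against -0.03 and 0.00 for all tested genes. Ccl6 ranged from 999 to 1779 normalised counts and Ccl9 from 400.1 to 982, and their groups overlapped. Cxcl11, the other CXCR3 ligand of the Cxcl9 cluster and annotated by RefSeq as a transcribed pseudogene, had 14.1, 32.3 and 99.9 normalised counts in control and 78.8, 71.0 and 46.9 in 18h-αGal, with overlap.

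**Figure D5:**
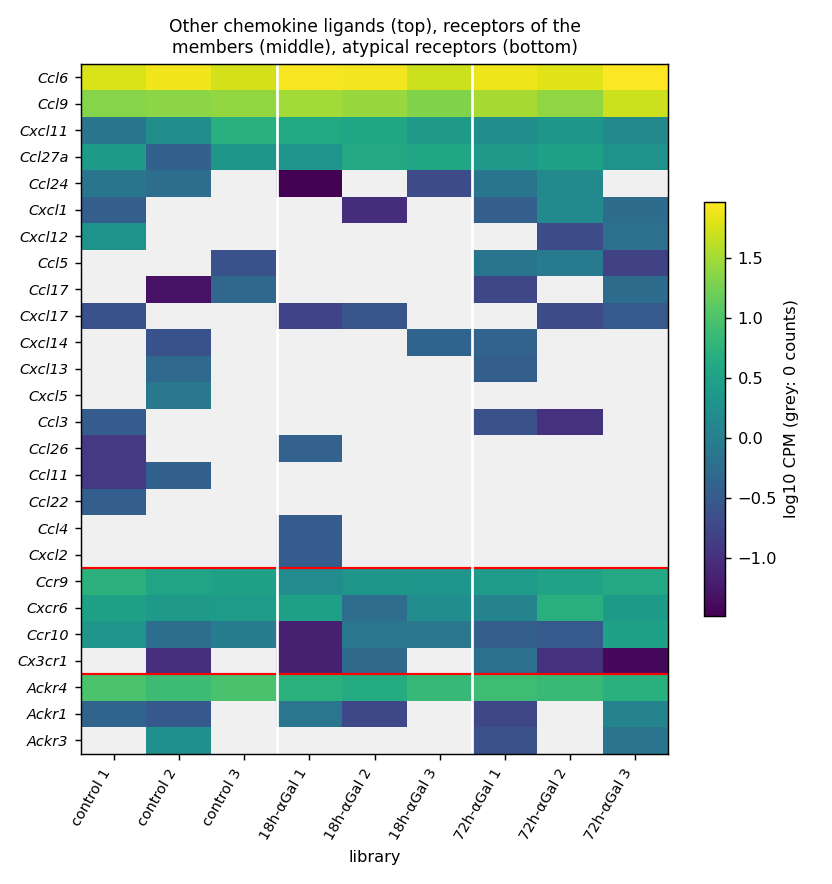
Log10 CPM (colour, grey for 0 counts) of the 19 other chemokine ligands, 4 receptors of the 7 chemokines and 3 atypical chemokine receptors in the table, by library. Ccl6 and Ccl9 are bright in all 9 libraries, and most other ligands have libraries at 0.

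Of the receptors through which the 7 ligands act, 4 of 7 were in the table and 3 were tested (Ccr9, Cxcr6 and Ccr10), with 0 called by edgeR in any comparison and 1 at an unadjusted p under 0.05 at 18 h. Ccr9, the CCL25 receptor, had 61.8 to 105 normalised counts in control and 29.0 to 43.1 in 18h-αGal (adjusted p = 0.175, edgeR). Its 18h-αGal libraries were below all controls, as were those of 12.3% of all tested genes. Ackr4, a scavenging receptor that takes up CCL25 and CCL20 among others, was the 1 atypical receptor tested, was not called, and had 147 to 190.3 normalised counts in control and 85.3 to 131 in 18h-αGal. The proteases that cut members of this group, Adam10, Adam17 and the dipeptidyl peptidase Dpp4, were all tested and 0 of 3 were called with edgeR, 1 of them having an unadjusted p under 0.05 at 18 h. Adam17 had 573 to 896 normalised counts in control and 1047 to 1058 in 18h-αGal (adjusted p = 0.0755, edgeR). Its 18h-αGal libraries were above all controls, as were those of 11.5% of all tested genes.

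Regulators known to act on these genes were taken from lists. In interferon-γ signalling, Irf1, a transcription factor that interferons induce, rose by 0.76 ± 0.16 (SE) on the log2 scale at 18 h (adjusted p = 0.0135, edgeR), but without control replicate 1 or 18h-αGal replicate 2 its adjusted p was 0.0763 or 0.0643. Its normalised counts were 1634, 2214 and 2434 in control, 3443, 3651 and 3473 in 18h-αGal and 2310, 2333 and 1548 in 72h-αGal. The 18h-αGal libraries were the highest of the 9. From 18 to 72 h, Irf1 fell by 0.77 and Jak2, a kinase of the interferon-γ receptor, by 0.49 on the log2 scale (adjusted p = 0.00859 and 0.0320, edgeR). The Jak2 call was lost in 7 of 15 alternatives, with adjusted p up to 0.161. Among them were those with each 72h-αGal replicate left out, and without control replicate 1, 18h-αGal replicate 1 or 18h-αGal replicate 3. The receptor genes Ifngr1 and Ifngr2 were not called in any comparison.

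Of 6 NF-κB pathway genes, Relb and Nfkb2, which form the dimer of the non-canonical arm, were called as lower at 18 h. Over all tested genes, 2.69% were called as lower. Nfkb1, Rela, Nfkbia and Tnfaip3 were not called. All 6 had a negative log2 fold change, and 4 had an unadjusted p under 0.05, beside 20.8% of all tested genes. Nfkb1 stood at only -0.02 ± 0.13 (SE) and Rela at -0.14 ± 0.17. Nfkbia stood at -0.49 (adjusted p = 0.0541, edgeR) and Tnfaip3 at -0.62 (adjusted p = 0.170, edgeR). Relb had 709, 938 and 1110 normalised counts in control, 437, 500 and 437 in 18h-αGal and 822, 883 and 717 in 72h-αGal. The 18h-αGal libraries were the lowest of the 9, and the log2 fold change was -0.99 ± 0.17 (SE; adjusted p = 0.00442, edgeR). Nfkb2 fell by 0.77 ± 0.15 on the log2 scale (adjusted p = 0.00909, edgeR), a call that was lost without 18h-αGal replicate 2 (adjusted p = 0.0574). Both were higher in 72h-αGal than in 18h-αGal, Relb by 0.82 and Nfkb2 by 0.74 on the log2 scale. The list's median was -0.56 at 18 h, against -0.03 for all tested genes.

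Markers of the epithelium itself were measured beside these results. Of 8 general epithelial markers, 0 were called at 18 h or 72 h against control with edgeR (1 and 0 at an unadjusted p under 0.05), and their sum was 4654 to 6527 CPM over the 9 libraries. Between the times 5 of the 8 had an unadjusted p under 0.05 and 1 was called. The keratin gene Krt18 was higher in 72h-αGal than in 18h-αGal by 0.54 ± 0.15 (SE) on the log2 scale (adjusted p = 0.0297, edgeR). This call was lost in 5 of 15 alternatives, with adjusted p up to 0.134. Among them were those without 18h-αGal replicate 2 or 3 or 72h-αGal replicate 1 or 3. Sis, an enterocyte disaccharidase, ranged from 44063 to 94024 normalised counts in control, 66536 to 101608 in 18h-αGal and 27554 to 44849 in 72h-αGal. Lgr5, a stem cell marker, ranged from 932 to 3241 in control, 411 to 1564 in 18h-αGal and 1931 to 3154 in 72h-αGal. Of 23 lineage markers, 2 rose at 18 h, the enteroendocrine granins Chga (0.61 ± 0.17 on the log2 scale, adjusted p = 0.0469, edgeR) and Chgb (0.72 ± 0.16, adjusted p = 0.0138, edgeR). The Chga call was lost in 9 of 15 alternatives, among them those without control replicate 1 or 2, 18h-αGal replicate 2 or 3, or 72h-αGal replicate 2, and the Chgb call without control replicate 2. At 72 h, 3 of the 23 were lower than in control and made up 3 of the 5 genes called there: Chga (-1.13 ± 0.17, adjusted p = 0.0390, edgeR), Chgb (-1.06 ± 0.16, adjusted p = 0.0349, edgeR) and Neurod1, an enteroendocrine transcription factor (-1.19 ± 0.16, adjusted p = 0.0170, edgeR). Over 15 alternatives, the call of Chga was lost in 9, that of Chgb in 7 and that of Neurod1 in 6, with adjusted p up to 0.332. Each was lost without control replicate 1 or 2 or any 1 of the 72h-αGal replicates, and that of Chga also without 18h-αGal replicate 2. From 18 to 72 h, 4 of the 23 fell: Chga by 1.74, Chgb by 1.78, Neurod1 by 1.57 and Trpm5, a tuft cell channel, by 1.17 on the log2 scale (largest adjusted p = 0.0109, for Trpm5, edgeR). The Trpm5 call was lost without 18h-αGal replicate 2 (adjusted p = 0.0504), and the others held in 15 of 15 alternatives. The part of cell composition in the chemokine differences was not tested.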

How the data were processed

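RNA was measured in 9 libraries, 1 per mouse, grouped by the labels. The authors prepared directional, ribosomal RNA-depleted libraries (100 bp reads) and mapped them with HISAT2. The methods name build GRCm39 and the submitters' processing notes GRCm38, featureCounts and DESeq2 1.42.0. Positions are RefSeq GRCm38.p6, and GENCODE vM39 was used for names and lengths (28480 of 29288 identifiers matched). Per the file headers, the authors deposited raw counts per gene and a normalised signal, which equals the count divided by the DESeq2 size factor and is called the normalised count here. It does not correct for length.

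The raw counts were tested with edgeR 4.0.16 (R 4.3.3): filterByExpr (minimum count 10), TMM, a robust quasi-likelihood fit of all 9 libraries and 3 contrasts, with Benjamini-Hochberg adjustment over 18933 genes and a threshold of 0.05. SE were derived from the F statistic. On simulated counts, 165 of 200 genes changed 4-fold between control and 18h-αGal were recovered, with 13 false calls among 18451 genes. The alternatives were DESeq2, RLE scaling, no filter, 2 groups per fit, no robust estimation, a replicate block and leaving out each library.

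The chemokines and the gene lists were chosen with earlier results of these data known. The text names the 7 chemokines, genes of each list that were called (up to 5) or abundant (up to 3), the 3 genes most alike each chemokine by Pearson's r of log2 CPM (prior count 2), and called genes within 100 kb. Others (Ptprc, Adgre1, Ms4a1, T and NK cell markers, Gp2, Sox8, Lgr5, Cxcl11, Ccr9, Ackr4, Med11, Zmynd15) were named after their values were seen. Some results of the interferon-γ signalling list are not reported here.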

Additional observations from a re-analysis of the deposited data

Results flagged for a closer look

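For 4 of the 7 chemokines the change at 18 h differed from the change at 72 h, both taken against the same 3 controls, so that the difference is the direct contrast of 72h-αGal with 18h-αGal. On the log2 scale this contrast was -3.43 for Cxcl9, 1.06 for Cxcl16, 1.99 for Ccl20 and 0.99 for Ccl28. The values for Cxcl16 and Ccl28 kept their calls in every alternative run, and those for Cxcl9 and Ccl20 did not.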

How the results depend on the processing

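At 18 h the calls of Cxcl9, Cxcl16 and Ccl28 kept their direction and their side of the threshold in 15 of 15 alternatives, and 3 or 4 chemokines were called in each, the fourth being Ccl20 with DESeq2, RLE scaling (adjusted p = 0.0495) or no filter. Over all genes, 1128 calls at 18 h became 1720 with DESeq2, 593 in a fit of the 2 groups alone and 432 to 1556 with a library left out. The 5 calls at 72 h became 31 with DESeq2, 13 without the filter, 3 without robust estimation and 0 to 20 with a library left out. Between the times, 1936 calls became 831 to 2593 with a library left out, and the 4 chemokines called became 2 to 4. Directions turned only among uncalled values: with a library left out, log2 fold changes at 18 h ran from -0.71 to 2.12 for Cxcl10 and -0.25 to 0.36 for Cx3cl1 (0.03 without 18h-αGal replicate 1, 0.04 without replicate 2), at 72 h from -1.73 to 0.11 for Cxcl10, -0.37 to 0.15 for Ccl20 and -0.12 to 0.15 for Ccl28 (-0.02 without control replicate 1), and between the times from -0.21 to 0.14 for Ccl25 (0.01 without 72h-αGal replicate 3). The cause was not tested.

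Replicate numbers 1 to 3 recur in each group without a stated pairing. Deviations of same-numbered libraries correlated at -0.15 to 0.11, with 1 of 9 pairs over 0.1. Of the 9 libraries, 0 were most alike their own number in both other groups. No pairing by number was seen, but with 3 libraries per group this check could miss one. With the replicate block, 781, 1 and 1371 genes and 3, 0 and 3 chemokines were called at 18 h, 72 h and between the times, and Cx3cl1 at 18 h stood at 0.0107. Depth limits Cxcl9, Cxcl10 and Ccl20 most, which had at most 172, 167 and 183 counts in any library.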

Other observations

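Among 40 genes in the count table within 100 kb of a chemokine gene, 33 were tested. At 18 h 3 of them were called, 9.09% beside 5.96% of all tested genes, at 72 h 0 with edgeR (3 at an unadjusted p under 0.05), beside 0.0264%, and between the times 2, 6.06% beside 10.2%. Alox15, a lipoxygenase gene near Cxcl16, had a log2 fold change of 3.55 ± 0.74 (SE; adjusted p = 0.0119, edgeR), a call lost without control replicate 1 or 18h-αGal replicate 2. Vmo1, also near Cxcl16, stood at -1.43 ± 0.39 (adjusted p = 0.0412, edgeR), a call lost in 11 of 15 alternatives. Hmgcs1, a cholesterol synthesis gene near Ccl28, stood at 0.52 ± 0.14 (adjusted p = 0.0341, edgeR), a call lost in 8 of 15, and at -0.57 ± 0.14 between the times (adjusted p = 0.0146, edgeR), lost without 72h-αGal replicate 3 (adjusted p = 0.0695). Elavl1, which lies beside Ccl25 and shares exon bases with it on the opposite strand, stood at -0.44 ± 0.12 between the times (adjusted p = 0.0287, edgeR), a call lost in 6 of 15 alternatives, those without control replicate 1, 18h-αGal replicate 1 or 2, or any 1 of the 72h-αGal replicates.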
